A study of Mus musculus with 8 samples.

Results

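The type 2 immune axis of the skin was followed through 10 genes, chosen by symbol: the cytokine genes Il4, Il5, Il13, Areg and Csf2, the alarmin genes Il33 and Tslp, and the receptor genes Il1rl1, Il4ra and Il13ra1. All 10 were found among the 31053 genes of the count tables, and each was read in 8 single-cell libraries. The libraries came from dorsal skin of female BALB/c mice aged 14 to 16 weeks, 4 injected under the skin with PBMCsec, the secretome of irradiated human peripheral blood mononuclear cells, and 4 with vehicle. The study describes injections into scars that had formed after excision of back skin, with medium or NaCl as control and harvest at either of 2 times, but the labels give neither the wound, the time nor the control solution of a library, nor what the library numbers stand for. They also do not say that each library came from a separate mouse, so that all p-values measure the spread between libraries only. PBMCsec is a human product, and so its own cytokines are not measured here.

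Il33 (interleukin-33) and Tslp (thymic stromal lymphopoietin) are alarmins, cytokines of barrier and stromal cells that are released or made on damage. IL-33 binds the receptor ST2, encoded by Il1rl1, which is carried by group 2 innate lymphoid cells, mast cells, basophils, regulatory T cells and type 2 helper T cells. These cells then make the type 2 cytokines: IL-4 and IL-13 act through the chains encoded by Il4ra and Il13ra1, IL-5 sustains eosinophils, amphiregulin (Areg) is a ligand of the EGF receptor in tissue repair, and GM-CSF (Csf2) acts on myeloid cells.

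Of 26231 barcodes in the files, 6150 passed the cell filter of the study (between 500 and 4000 genes, no more than 20000 UMIs, and mitochondrial counts of 5% or less), 151 to 1659 per library, with medians of 6156 to 9521 UMIs per cell. The 26231 barcodes held 14753926 to 37880651 UMIs per library, and 16900 of them were over the mitochondrial limit. Vehicle 1 and vehicle 2 kept the fewest cells, 151 and 208. Of the barcodes, 78 occurred in at least 2 libraries, 4 of them among the kept cells. The clusters built here gave 15 cell classes, each called "-like" from its markers, and 215 cells stayed unnamed. The innate lymphoid-like (ILC-like) class held 89 cells, of which 91.0% had a UMI of Gata3, 88.8% of Il7r, 80.9% of Rora and 67.4% of Klrg1, while 2.25% had one of Cd3e. Its 10 leading genes included Csf2, Il13, Il1rl1 and Areg, although the members were left out of the genes used for clustering. The αβ T-like class (471 cells; Cd3e in 81.1%) and the mast cell- and basophil-like class (27 cells; all 13 markers detected, Cpa3 in 70.4%) also carried their defining genes. The NK-like class (135 cells) was mixed, with Cd3e in 44.4%, Trac in 45.9% and Trdc in 20.7% of cells, so that its name does not exclude T cells. Classes were formed from other genes of the same cells. Comparisons between classes therefore give the size of a difference against the spread between libraries and no independent evidence of cell identity.

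In these 6150 cells, Il13ra1 had 4174 UMIs, Il4ra 3792, Il33 3759, Areg 2507, Csf2 1220, Il1rl1 1163, Il13 941, Il5 556, Tslp 253 and Il4 149. The receptor chains Il13ra1 and Il4ra were met in 2295 and 1632 cells, Il33 in 1099, and the cytokines Il4, Il5, Il13 and Csf2 in 79 to 96 cells each. Areg was met in 264 cells, Il1rl1 in 356 and Tslp in 213. Levels below are in CPM, the UMIs of a gene per 1000000 UMIs of the class, from 3′ tags that count molecules and need no scaling to gene length. Pooled CPM sum a class over all libraries.

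**Figure D1:**
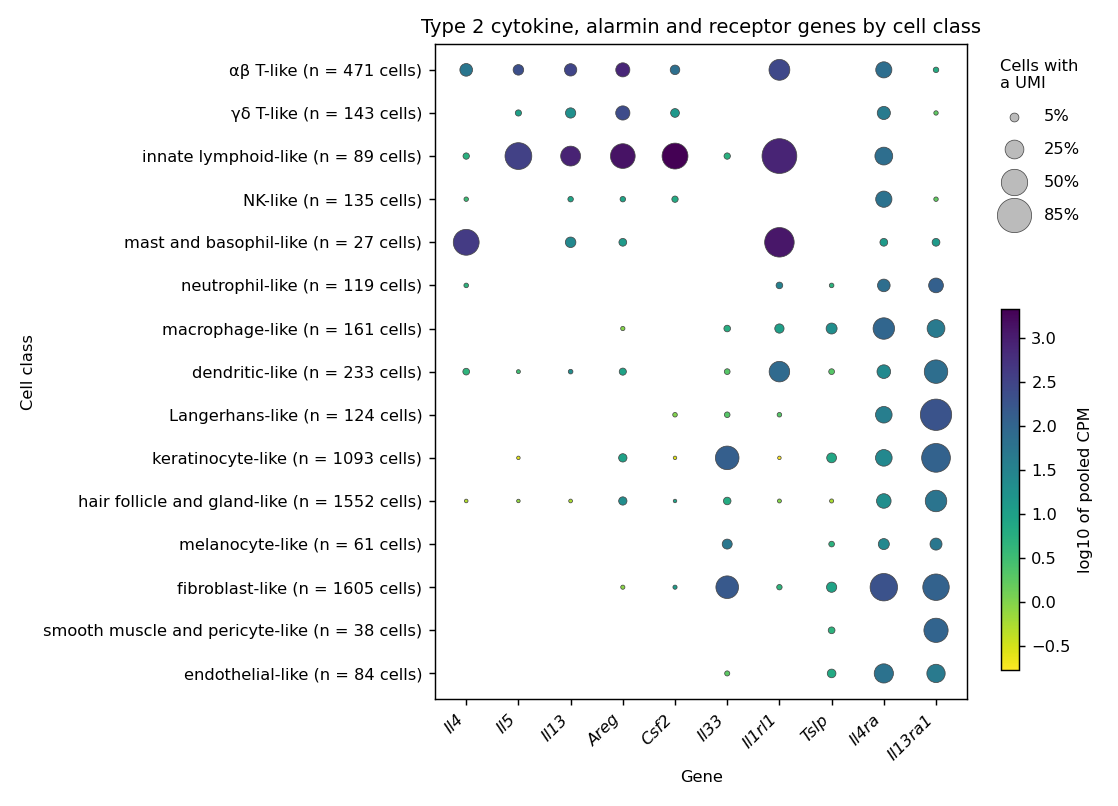
The 10 genes (horizontal axis) across the 15 cell classes (vertical axis). Dot area gives the percentage of cells with a UMI and colour the pooled CPM on a log10 scale, and a blank place means 0 UMIs. Il5, Il13, Areg and Csf2 are highest in the innate lymphoid-like and αβ T-like classes, Il33 in fibroblast- and keratinocyte-like cells, and Il4ra and Il13ra1 spread over nearly all classes.

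Of the 10 genes, 4 lie in 1 stretch of 646.686 kb on chromosome 11 of GRCm38 (mm10): Il4 at chr11:53602982-53618669 on the minus strand, Il13 at chr11:53631324-53634702 (minus), Il5 at chr11:53720794-53725106 (plus) and Csf2 at chr11:54247271-54249667 (minus). The others lie apart, Il1rl1 at chr1:40429570-40465415, Areg at chr5:91139599-91148432, Il4ra at chr7:125552120-125579474, Il33 at chr19:29925114-29960718 and Il13ra1 at chrX:36112110-36171259, all on the plus strand, and Tslp on another chromosome. Gata3, detected in most ILC-like cells, encodes a GATA factor that is known to act on this cluster. Since Il13, Il5 and Csf2 of the cluster were met in the same cells (below), the 250 bases before their start sites are shown, from RefSeq on GRCm38.p6, 5′ to 3′ on the strand of the gene, with capitals for the GATA motif on either strand, searched as AGATAA and its form AGATAG, and as TGATAA and its form TGATAG.
Il13, chr11:53634703-53634952, minus strand: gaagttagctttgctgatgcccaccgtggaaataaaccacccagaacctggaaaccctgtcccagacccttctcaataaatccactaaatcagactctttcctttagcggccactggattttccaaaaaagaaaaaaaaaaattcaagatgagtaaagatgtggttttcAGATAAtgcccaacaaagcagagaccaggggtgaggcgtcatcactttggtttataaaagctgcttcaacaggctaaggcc
Il5, chr11:53720544-53720793, plus strand: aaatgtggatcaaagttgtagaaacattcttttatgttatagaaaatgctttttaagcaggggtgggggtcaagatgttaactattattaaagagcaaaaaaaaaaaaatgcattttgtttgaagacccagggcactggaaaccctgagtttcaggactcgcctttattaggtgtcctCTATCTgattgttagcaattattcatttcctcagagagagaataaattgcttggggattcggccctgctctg
Csf2, chr11:54249900-54250149, minus strand: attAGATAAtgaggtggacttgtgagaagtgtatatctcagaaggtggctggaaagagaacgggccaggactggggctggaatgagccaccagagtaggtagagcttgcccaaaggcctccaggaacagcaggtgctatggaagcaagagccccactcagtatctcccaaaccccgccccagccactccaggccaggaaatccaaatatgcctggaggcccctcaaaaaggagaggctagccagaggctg
Each window held 1 match. AGATAA started 81 bases before the Il13 start, CTATCT, which reads AGATAG on the other strand, 72 bases before the Il5 start, and AGATAA 247 bases before the Csf2 start. The Csf2 window, from 54249900, does not adjoin the gene end given above, 54249667. Its distance is therefore counted from a RefSeq start upstream of that end. Il4 had 1 match over its 2 start sites (TGATAG, 80 bases before the inner start), and 0 in the window at the 5′ end of the gene. Il1rl1 had 6 over its 2 start sites. Of the 9 members with a window, 5 held such a match, against 8039 of 27025 genes (29.7%) with one in any of their windows. These matches are letters in a sequence, not measured binding.

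Next, the cytokine genes were traced to their cells. Il5 was met in 46 of 89 ILC-like cells (51.7%, 95% Clopper-Pearson interval 40.8 to 62.4, pooled level 339 CPM) and in 35 of 471 αβ T-like cells (7.43%, 5.23 to 10.2, 219 CPM). All intervals given for shares cover counting error only. The 35 αβ T-like cells held 72.7% of all Il5 UMIs and the 46 ILC-like cells 22.7%. By library, the Il5 level in ILC-like cells was 703, 44.4, 480 and 0 CPM in PBMCsec libraries 1 to 4, and 313, 610, 250 and 266 CPM in vehicle libraries 1 to 4. These values rest on 6, 5, 18 and 4 cells and on 15, 4, 15 and 22 cells, and the groups overlapped. αβ T-like cells had Il5 at 328, 273, 149 and 27.9 CPM after PBMCsec and at 561, 237, 59.0 and 12.1 CPM after vehicle. γδ T-like cells had a UMI of Il5 in 3 of 143 cells, and none was met in 1605 fibroblast-like cells, where 0 cells allow a share of up to 0.187% (median depth 8651 UMIs against 3555 in ILC-like and 3155 in αβ T-like cells). Of the 46 ILC-like cells with Il5, 1 had a UMI of Cd3e.

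Il13, the cytokine of mucus, itch and fibrosis in type 2 responses, had the same pair of leading classes. It was met in 25 of 89 ILC-like cells (28.1%, 19.1 to 38.6, 841 CPM) and 49 of 471 αβ T-like cells (10.4%, 7.80 to 13.5, 304 CPM), which held 33.3% and 59.4% of its UMIs. In ILC-like cells the level was 148, 44.4, 2829 and 0 CPM after PBMCsec and 288, 1607, 792 and 340 CPM after vehicle, so that PBMCsec 3 held the highest value and PBMCsec 4 had no UMI in 4 cells. In αβ T-like cells Il13 stood at 655, 464, 87.9 and 167 CPM after PBMCsec and at 218, 353, 65.5 and 12.1 CPM after vehicle. Both Il5 and Il13 were higher in the αβ T-like cells of all 4 libraries numbered 1 or 2 than in those of all 4 libraries numbered 3 or 4: Il5 lay at 237 to 561 CPM against 12.1 to 149 CPM, and Il13 at 218 to 655 CPM against 12.1 to 167 CPM. This order was seen after the values were known, and the labels give the numbers no meaning. Beyond these classes, Il13 was met in 10 of 143 γδ T-like cells (6.99%) at 19.1 CPM, with 0 to 69.5 CPM by library, and in 2 of 27 mast cell- and basophil-like cells. A further 43 UMIs of Il13 came from 2 dendritic-like cells, 42 of them from 1 cell.

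Csf2 was the most abundant cytokine of the ILC-like cells. It was met in 43 of 89 of them (48.3%, 37.6 to 59.2) at 2107 CPM, which made up 64.3% of all its UMIs, against 28 of 471 αβ T-like cells (5.94%, 3.99 to 8.48) at 69.5 CPM. Library by library, the ILC-like level was 1739, 355, 5606 and 0 CPM after PBMCsec and 738, 2162, 3045 and 1642 CPM after vehicle, again highest in PBMCsec 3. The αβ T-like level was 22.8, 72.8, 125 and 39.0 CPM against 6.24, 0, 157 and 163 CPM, without a gap between the groups. Outside the lymphoid cells Csf2 came in bursts: 9 of 1605 fibroblast-like cells held 163 UMIs, 81 of them in 1 cell. None of the 9 had a UMI of the leukocyte gene Ptprc, but 2 had one of Cd3e and 1 was among the highest doublet scores. Likewise, 3 hair follicle- and gland-like cells held 129 UMIs, 92 in 1 cell, and all 3 had Ptprc and 2 were among the highest doublet scores.

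Areg, made in tissue repair by lymphoid and epithelial cells, was met in 39 of 89 ILC-like cells (43.8%, 1333 CPM), in 20 of 143 γδ T-like cells (14.0%, 8.76 to 20.8, 241 CPM) and in 65 of 471 αβ T-like cells (13.8%, 10.8 to 17.3, 762 CPM). In ILC-like cells the level was 222, 0, 1149 and 0 CPM after PBMCsec and 2864, 3104, 751 and 680 CPM after vehicle. The αβ T-like level was 2384, 776, 112 and 240 CPM after PBMCsec and 68.6, 726, 328 and 139 CPM after vehicle. The γδ T-like level was 218, 231, 619 and 0 CPM against 0, 49.4, 111 and 27.5 CPM. The groups overlapped in each of these classes. Epithelial cells had Areg at lower levels, in 67 of 1552 hair follicle- and gland-like cells (4.32%, 21.5 CPM) and in 48 of 1093 keratinocyte-like cells (4.39%, 9.69 CPM), with greater depth per cell (medians of 9270.5 and 10811 UMIs). Within the first class, 1 cluster of 98 cells led by Cst6 and Krt79 had Areg in 31.6% of cells.

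Il4 differed from the other cytokines in its leading class. Mast cell- and basophil-like cells had it in 13 of 27 cells (48.1%, 28.7 to 68.1) at 403 CPM, αβ T-like cells in 52 of 471 (11.04%, 8.36 to 14.2) at 52.7 CPM, and ILC-like cells in 2 of 89. With 7, 4, 1 and 2 mast cell- and basophil-like cells after PBMCsec and 4, 7, 1 and 1 after vehicle, the Il4 level was 598, 171, 0 and 345 CPM against 476, 379, 0 and 0 CPM, and libraries 3 and 4 of either group say little. αβ T-like cells held 65.1% of the Il4 UMIs and mast cell- and basophil-like cells 20.8%. Of the 52 αβ T-like cells with Il4, 47 had Ptprc and 44 had Cd3e. Of the 13 mast cell- and basophil-like cells with Il4, 8 had Ptprc and 4 were among the highest doublet scores. The 3 richest of them held 54.8% of the Il4 UMIs of that class. Neither fibroblast-like (0 of 1605, up to 0.187%) nor keratinocyte-like cells (0 of 1093, up to 0.274%) had a UMI of Il4. By comparison, Krt14, a keratin gene that lymphocytes lack, was met in 28.0% of αβ T-like and 21.3% of ILC-like cells, at 93.4 and 51.1 CPM against 13073 CPM in keratinocyte-like cells, so that a low level alone does not show that a class expresses a gene.

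**Figure D2:**
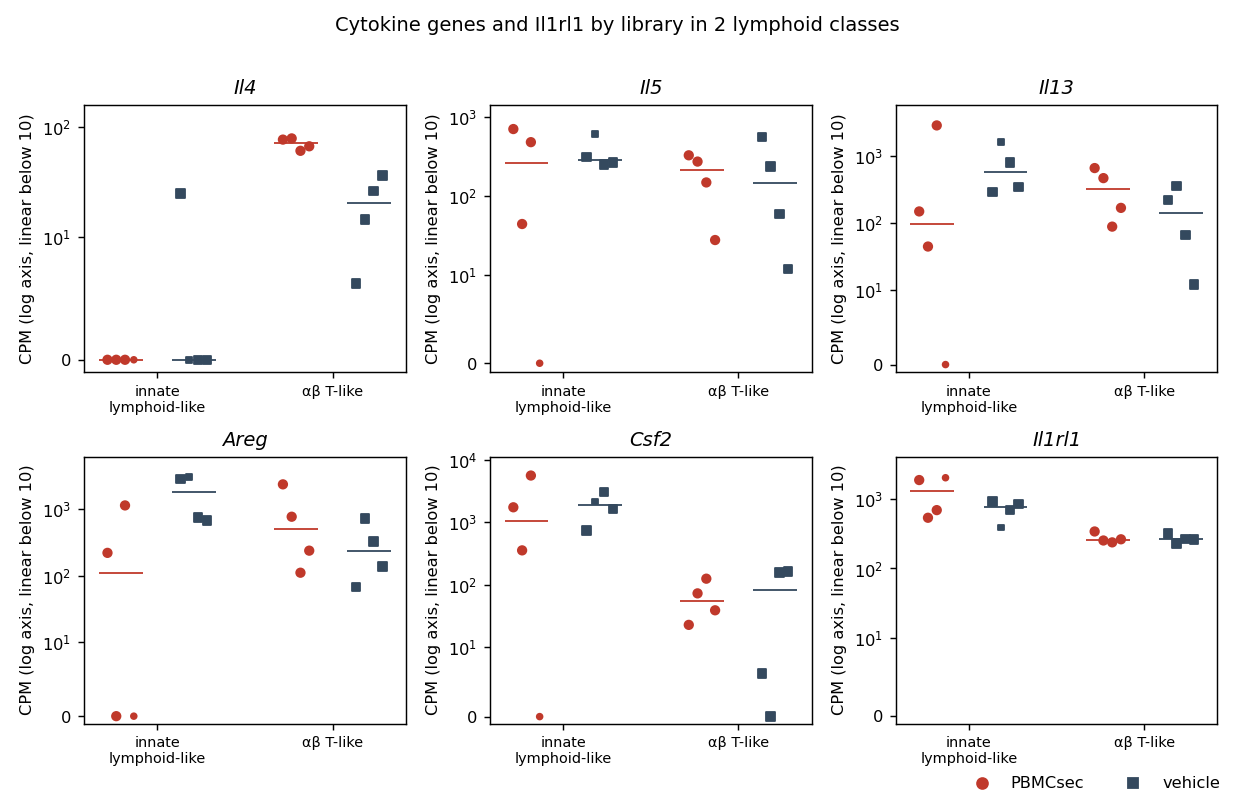
CPM per library of Il4, Il5, Il13, Areg, Csf2 and Il1rl1 in innate lymphoid-like and αβ T-like cells, on a log axis that is linear below 10, with circles for PBMCsec, squares for vehicle, a horizontal line at the median and small points for libraries with under 5 cells of the class. Il4 in αβ T-like cells sits at 60.8 to 78.9 CPM after PBMCsec and at 6.24 to 36.3 CPM after vehicle, whereas Il5, Il13, Areg and Csf2 overlap between the groups in both classes.

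Since cells of these classes differ in depth, cells with at least 1000 UMIs were also thinned to 1000 UMIs. Cells with fewer were left out of these shares, which are expected values over random draws. The share with Il5 was then 23.2% of ILC-like and 4.67% of αβ T-like cells, with Il13 19.0% and 5.80%, with Csf2 36.9% and 3.04%, and with Areg 30.6% and 8.70%. The share with Il4 was 23.5% of mast cell- and basophil-like and 3.66% of αβ T-like cells. For all 5 cytokines the first class of each pair was still the higher one.

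A few cells carried a large share of the cytokine UMIs. In αβ T-like cells the 3 richest cells held 36.1% of the Il4 UMIs, 43.1% of Il5, 37.7% of Il13, 30.1% of Areg and 52.3% of Csf2, and a single cell held up to 71 UMIs of Il5, 86 of Il13 and 147 of Areg. In ILC-like cells the 3 richest held 28.6% of Il5, 47.3% of Il13, 51.0% of Areg and 26.5% of Csf2, but 14.1% of the receptor Il1rl1. By contrast, the 3 richest of the more numerous fibroblast-like cells held 3.97% of the Il33 and 1.59% of the Il4ra UMIs of that class. The mean of a class in a library therefore rests on a handful of cells for the cytokines and on many for the alarmin and the receptor.

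The cytokines were often met together. Of 89 ILC-like cells, 23 had none of the 5 cytokines, 17 had 1, 22 had 2, 15 had 3, 11 had 4 and 1 had all 5. Of 471 αβ T-like cells, 327 had none, 94 had 1, 25 had 2, 16 had 3, 8 had 4 and 1 had all 5, and among 27 mast cell- and basophil-like cells 2 had 2 cytokines and none had more. Of the 46 ILC-like cells with Il5, 31 also had Csf2 (67.4%, and 72.1% of the 43 with Csf2) and 21 also had Il13 (45.7%, and 84.0% of the 25 with Il13). In αβ T-like cells, Il5 and Il13 met in 23 cells (65.7% of the 35 with Il5 and 46.9% of the 49 with Il13), and Il4 and Il13 in 22 (42.3% of 52 and 44.9% of 49). Il1rl1 accompanied Areg in 37 of 39 ILC-like and 44 of 65 αβ T-like cells, and Il4 in 8 of 13 mast cell- and basophil-like cells. Deeper cells hold more genes of any kind, and these counts are given as a description.

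**Figure D3:**
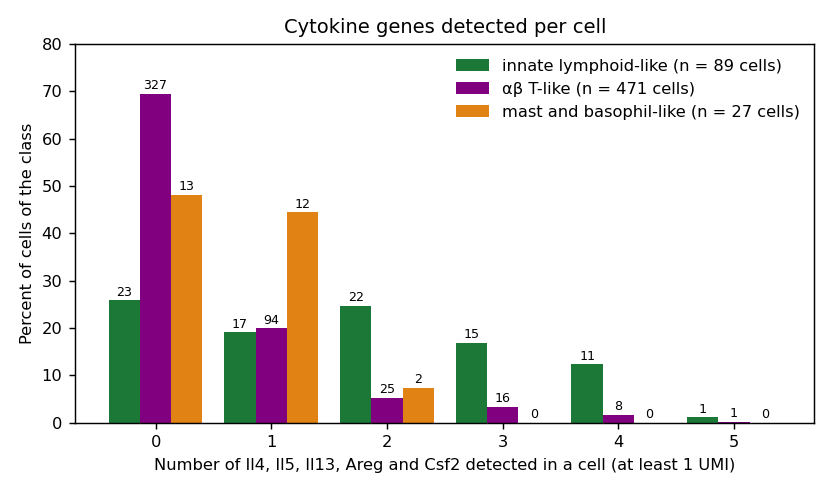
Percentage of cells (vertical axis) by how many of Il4, Il5, Il13, Areg and Csf2 they had a UMI of (horizontal axis) in the innate lymphoid-like, αβ T-like and mast cell- and basophil-like classes, with the number of cells over each bar. Most αβ T-like cells, 327 of 471, had none, against 23 of 89 innate lymphoid-like cells.

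Among αβ T-like cells, the cytokines were unevenly spread over the 2 clusters. The cluster led by Ctla4, Areg and Icos (239 cells) had Il4 in 17.6%, Il5 in 13.4%, Il13 in 18.0%, Areg in 25.5% and Il1rl1 in 44.8% of cells. The cluster led by Cd4, Ms4a4b and Trac (232 cells) had them in 4.31%, 1.29%, 2.59%, 1.72% and 16.8%. Foxp3, the factor of regulatory T cells, was met in 48 and 17 cells of these clusters. None of them had a UMI of Il4, Il5 or Il13, while Areg was met in 20 of the 48 and 1 of the 17.

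Compared over 5400 genes with the library as a block (edgeR's quasi-likelihood test, Benjamini-Hochberg adjustment), 2 of the 8 members tested differed between αβ T-like and ILC-like cells, where 5.87% of all genes did. Csf2 and Il1rl1 were lower in αβ T-like cells, with log2 differences (αβ T-like minus ILC-like) of -4.29 (SE 0.49, adjusted p = 3.7e-09) and -1.49 (SE 0.30, adjusted p = 3.5e-04). The differences of Il13 (-1.69, adjusted p = 0.103), Areg (-0.72, adjusted p = 0.586) and Il5 (-0.71, adjusted p = 0.504) did not exceed the spread between libraries, by the same test. At a mitochondrial limit of 20% the αβ T-like level of Csf2 was 300.0 CPM in place of 69.5 CPM, and ILC-like cells formed no cluster of their own, so that the contrast had no value there. Il4 and Tslp did not pass the filter on low counts. γδ T-like cells were below ILC-like cells in all 5 of Il5, Il13, Areg, Csf2 and Il1rl1, where 10.8% of all genes differed, from -2.28 for Areg (adjusted p = 0.00753) to -7.35 for Csf2 (adjusted p = 1.4e-10).

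The receptor ST2 was then followed through its gene Il1rl1. It was met in 78 of 89 ILC-like cells (87.6%, 79.0 to 93.7, 836 CPM), 17 of 27 mast cell- and basophil-like cells (63.0%, 42.4 to 80.6, 1209 CPM), 146 of 471 αβ T-like cells (31.0%, 26.8 to 35.4, 272 CPM) and 70 of 233 dendritic-like cells (30.04%, 24.2 to 36.4, 82.6 CPM). Mast cell- and basophil-like cells had Il1rl1 at 966, 428, 433 and 0 CPM after PBMCsec and 1509, 1981, 0 and 0 CPM after vehicle. After thinning, the shares were 53.5%, 44.2%, 17.1% and 9.39%. Of the 17 mast cell- and basophil-like cells with Il1rl1, 9 had Ptprc and 6 were among the highest doublet scores. In ILC-like cells the level was 1850, 533, 686 and 1996 CPM after PBMCsec and 913, 388, 688 and 843 CPM after vehicle. The αβ T-like level varied little, at 339, 252, 237 and 262 CPM and at 318, 227, 262 and 260 CPM. Dendritic-like cells had 56.5, 6.08, 103 and 91.6 CPM and 78.0, 26.5, 98.3 and 120 CPM, below αβ T-like cells by 1.60 on the log2 scale (SE 0.30, adjusted p = 8.0e-06, edgeR, where 47.8% of all genes differed). αβ T-like cells held 43.0% of the Il1rl1 UMIs, ILC-like cells 26.7%, dendritic-like cells 13.8% and mast cell- and basophil-like cells 8.0%. In macrophage-like cells it was met in 9 of 161 (5.59%), at 0 to 36.4 CPM by library. None of 143 γδ T-like (up to 2.10%) or 135 NK-like cells (up to 2.22%) had a UMI of it, at median depths of 3787 and 3676 UMIs.

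Il33, the ligand of ST2, came from the structural cells. Fibroblast-like cells had it in 588 of 1605 cells (36.6%, 34.3 to 39.1, 157 CPM) and keratinocyte-like cells in 436 of 1093 (39.9%, 37.0 to 42.9, 127 CPM), and together they held 57.0% and 39.8% of its UMIs. By library the fibroblast-like level was 166, 21.0, 124 and 171 CPM after PBMCsec and 131, 242, 263 and 81.3 CPM after vehicle. The keratinocyte-like level was 85, 36.1, 192 and 66.3 CPM and 44.1, 166, 160 and 61.7 CPM. Libraries of one group differed widely in both classes, and the difference between fibroblast- and keratinocyte-like cells (0.43 on the log2 scale, SE 0.24, adjusted p = 0.105, edgeR, where 66.4% of all genes differed) did not exceed that spread. Hair follicle- and gland-like cells lay far below, with a UMI in 54 of 1552 cells (3.48%, 6.58 CPM) and a log2 difference from keratinocyte-like cells of -4.15 (SE 0.31, adjusted p = 4.9e-17, edgeR, where 33.1% of all genes differed). Melanocyte-like cells had it in 4 of 61 cells (51.0 CPM, 0 to 179 CPM by library). None of 471 αβ T-like cells had a UMI of Il33, which allows a share of up to 0.637%, at a median depth of 3155 UMIs. After thinning, the fibroblast-like share was 11.6% and the keratinocyte-like share 9.41%.

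Within the structural cells the alarmins were concentrated in some clusters. A fibroblast-like cluster of 243 cells led by Mrgprg, Smpd3 and Daglb had Il33 in 79.0% of cells (475 CPM), and one of 151 cells led by Ptx3, Ccl2 and Cxcl1 had it in 49.0% (350 CPM). The second of these clusters had no cells in PBMCsec 2, vehicle 1 and vehicle 2, and 175 to 699.7 CPM of Il33 in the other 5 libraries. Among keratinocyte-like cells, the cluster led by Serpinb2 and Fosl1 had the highest level, 233 CPM. The fibroblast-like cluster with the most Il33 also had the highest levels of Il4ra (431 CPM, 86.4% of cells) and Il13ra1 (213 CPM, 76.5%) of all clusters.

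Tslp, the alarmin that acts on dendritic cells and lymphocytes, was sparse throughout. It was met in 111 of 1605 fibroblast-like cells (6.92%, 9.05 CPM), 69 of 1093 keratinocyte-like cells (6.31%, 7.56 CPM) and 13 of 161 macrophage-like cells (8.07%, 4.37 to 13.4, 20.4 CPM), which held 48.6%, 35.2% and 8.30% of its 253 UMIs. The fibroblast-like level was 11.1, 19.3, 10.6 and 6.21 CPM after PBMCsec and 3.86, 10.1, 4.79 and 9.57 CPM after vehicle, and the keratinocyte-like level was 5.20, 21.6, 5.17 and 5.74 CPM and 0, 1.91, 10.8 and 9.31 CPM. No αβ T-like (0 of 471, up to 0.637%), ILC-like, γδ T-like or NK-like cell had a UMI of Tslp. After thinning, the share in fibroblast-like, keratinocyte-like and macrophage-like cells was 0.863%, 0.708% and 1.48%.

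The receptor chains for IL-4 and IL-13 were widest in reach. Il4ra, the chain shared by both cytokines, was met in 869 of 1605 fibroblast-like cells (54.1%, 51.7 to 56.6, 199 CPM), which held 71.4% of its UMIs, and in 53 of 161 macrophage-like cells (32.9%, 96.4 CPM). The fibroblast-like level was 141, 114, 122 and 347 CPM after PBMCsec and 328, 202, 289 and 192 CPM after vehicle, with PBMCsec 4 far above the other PBMCsec libraries. Macrophage-like cells had 151, 161, 71.8 and 74.0 CPM and 39.0, 114, 47.5 and 60.7 CPM. Fibroblast-like cells exceeded keratinocyte-like cells by 2.77 on the log2 scale (SE 0.28, adjusted p = 1.4e-14, where 66.4% of all genes differed) and macrophage-like cells by 1.38 (SE 0.32, adjusted p = 1.1e-04, where 56.0% did; edgeR). Below them, macrophage-like, ILC-like (20 of 89 cells, 72.6 CPM, 0 to 222 CPM by library) and αβ T-like cells (86 of 471, 73.9 CPM, 29.0 to 99.8 CPM) did not differ beyond their spread (adjusted p = 0.494 and 0.304 against macrophage-like cells, edgeR, where 36.2% and 50.2% of all genes differed). Endothelial-like (59.9 CPM, 10.3 to 247 CPM by library), NK-like (59.4 CPM, 25.2 to 103 CPM), Langerhans-like (38.8 CPM, 13.8 to 131 CPM) and dendritic-like cells (25.3 CPM, 0 to 54.8 CPM) also had Il4ra, and of 38 cells of the class of smooth muscle cells and pericytes none did. Neutrophil-like cells, the shallowest class (median 1493 UMIs), had it at 73.3 CPM (0 to 123 CPM by library) and γδ T-like cells at 43.4 CPM (0 to 92.4 CPM). Keratinocyte-like cells (25.5 CPM, 11.03 to 57.7 CPM by library) and hair follicle- and gland-like cells (20.8 CPM, 12.2 to 59.3 CPM) were at the lower end, and did not differ from each other beyond their spread (adjusted p = 0.135, edgeR).

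Il13ra1, the chain that binds IL-13 and pairs with that of Il4ra, was highest in Langerhans-like cells. It was met in 88 of 124 of them (71.0%, 62.1 to 78.8, 189 CPM), 651 of 1093 keratinocyte-like (59.6%, 112 CPM), 808 of 1605 fibroblast-like (50.3%, 114 CPM), 513 of 1552 hair follicle- and gland-like (33.1%, 55.6 CPM, 34.2 to 104 CPM by library) and 92 of 233 dendritic-like cells (39.5%, 73.3 CPM, 31.2 to 94.9 CPM). By library the Langerhans-like level was 234, 225, 152 and 172 CPM after PBMCsec and 262, 112, 188 and 216 CPM after vehicle. Fibroblast-like cells had 86.5, 33.8, 134 and 84.4 CPM and 143, 151, 120 and 125 CPM, and keratinocyte-like cells 155, 108, 126 and 75.9 CPM and 165, 139, 101 and 106 CPM. Langerhans-like cells exceeded keratinocyte-like cells (difference of keratinocyte-like minus Langerhans-like cells -0.63 on the log2 scale, SE 0.25, adjusted p = 0.0277, edgeR, where 53.4% of all genes differed), fibroblast-like cells (-0.89, SE 0.25, adjusted p = 0.00143, where 57.5% of all genes differed) and dendritic-like cells (-1.50, SE 0.28, adjusted p = 1.1e-05, edgeR, where 30.9% did). Fibroblast- and keratinocyte-like cells did not differ beyond their spread (-0.25, adjusted p = 0.293, edgeR). Neutrophil-like cells (122 CPM, 0 to 191 CPM by library), smooth muscle cells and pericytes (105 CPM, 0 to 244 CPM), endothelial-like cells (45.4 CPM, 0 to 96.1 CPM) and macrophage-like cells (44.8 CPM, 27.6 to 117 CPM) had it as well. No ILC-like cell had a UMI of Il13ra1 (0 of 89, up to 3.37%).

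For each member, the 3 genes with the most similar levels over 12 classes were sought among 13837 genes (Pearson's r of log2(CPM + 10) class means, given without a test, since the classes share libraries). Il5 ran with 4932438H23Rik (r = 0.995), Il9r (0.979) and Il13 (0.976). Il13 ran with Il5, Calca (0.974) and 4932438H23Rik (0.972), Areg with Ccr4 (0.978), Tasp1 (0.977) and Calca (0.97), and Csf2 with Pcsk1 (0.990), Ccdc184 (0.968) and Il17rb (0.964). Il33 ran with Dio2 (0.988), Bmp3 (0.986) and Olfm2 (0.982), and Tslp with Man1c1 (0.942), Ccdc152 (0.919) and Lamp1 (0.908). For the receptors the leading genes were Ccr3 (0.969), Hilpda (0.915) and Il13 (0.876) for Il1rl1, Mia3 (0.898), Tmod1 (0.868) and Vcam1 (0.848) for Il4ra, and Ckap4 (0.965), Cbr3 (0.937) and Cd63 (0.904) for Il13ra1. For Il4 they were Cd200r3 (0.876), Eno1b (0.857) and Slc36a3os (0.846). The mast cell- and basophil-like class was not among the 12, since too few libraries held 5 of its cells.

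Finally, PBMCsec was compared with vehicle. Summed over all cells of a library, no member was called and none separated the groups (edgeR's quasi-likelihood test, 0 of 10). Over all 13182 genes, 0.0% were called and 1.79% did not overlap, while 260 were higher and 75 lower at an unadjusted p under 0.05. The log2 fold changes of 4 members were positive and of 6 negative. In such sums, fewer cells of a type and less RNA per cell cannot be told apart. Il5 was at 24.1, 42.1, 6.07 and 0.750 CPM after PBMCsec and at 100.3, 41.9, 2.56 and 2.92 CPM after vehicle (CPM in these and the following sums are scaled by TMM normalization factors). Areg was at 173, 138, 24.0 and 14.4 CPM against 207, 154, 14.3 and 16.3 CPM, and Il13 at 48.5, 71.5, 16.0 and 4.65 CPM against 51.9, 77.5, 4.07 and 3.94 CPM. In both groups all libraries numbered 1 and 2 were above those numbered 3 and 4 for these genes. Tslp was the member with the largest positive value, at 6.70, 9.05, 5.90 and 4.2 CPM after PBMCsec and 1.70, 4.08, 3.70 and 5.25 CPM after vehicle (6.46 ± 2.02 against 3.68 ± 1.48, SD, n = 4 each, log2 fold change 0.70, exact permutation p = 0.0571).

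The share of cells in the cytokine-rich classes was then compared. ILC-like cells made up 0.856, 1.60, 1.19 and 0.506% of kept cells after PBMCsec and 9.93, 1.92, 0.904 and 2.71% after vehicle (1.04 ± 0.466% against 3.87 ± 4.11%, SD, n = 4, exact permutation p = 0.0857, two-sided). Vehicle 1, with 15 such cells of 151, stood highest, and vehicle 3 lay within the PBMCsec range. The difference of the means, -2.83 percentage points, was -0.81 without vehicle 1 and -3.82 without vehicle 3. Vehicle 3 was the only vehicle library within the PBMCsec range, so leaving it out separates the groups by choice, and no p-value is given for it. Mast cell- and basophil-like cells made up 0.649 ± 0.582% and 1.55 ± 1.71% (n = 4 each, exact permutation p = 0.4). αβ T-like cells made up 9.56, 18.8, 6.67 and 6.83% after PBMCsec and 21.2, 17.3, 4.10 and 6.65% after vehicle. Their means were 10.5 ± 5.74% and 12.3 ± 8.23% (SD, n = 4 each, exact permutation p = 0.914). In both groups the libraries numbered 1 and 2 were above those numbered 3 and 4. The part of this share in the whole-library levels was not tested. With 4 libraries against 4, the smallest p of the exact permutation test, two-sided over 70 labellings, is 0.0286.

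In lymphoid cells, Il4 was higher in every PBMCsec library than in any vehicle library. Its level was 52.4, 52.0, 30.4 and 42.9 CPM after PBMCsec and 10.2, 10.1, 11.4 and 27.4 CPM after vehicle (44.4 ± 10.3 against 14.8 ± 8.45, SD, n = 4, exact permutation p = 0.0286). Groups that did not overlap were met for 2.32% of the 4747 genes tested, and 0.0% were called (86 higher and 93 lower at an unadjusted p under 0.05). Il4 itself was below the filter on low counts of that fit. Fitted without the filter, over 14669 genes, its log2 fold change was 1.66 (SE 0.42, adjusted p = 0.0243, edgeR), one of 47 calls. With the library number as a block, 7 of the 4747 genes were called, none of them a member. Il4 was not among the genes tested there, so that fit could not call it. The paired exact permutation p of Il4 was 0.125, the smallest that 4 pairs allow. The groups overlapped once ILC-like cells were left out (exact permutation p = 0.0571, n = 4) and at a mitochondrial limit of 20% (exact permutation p = 0.114, n = 4), while the difference of the means, 29.7 CPM, was 32.1 and 36.9 CPM there. In whole libraries Il4 showed no such difference, at 7.22, 13.1, 1.56 and 2.1 CPM after PBMCsec and 11.1, 11.6, 0.302 and 1.17 CPM after vehicle (exact permutation p = 1.0, n = 4). In myeloid cells it had 10 UMIs, at 0.940 ± 1.27 against 10.3 ± 14.3 CPM (exact permutation p = 0.429, n = 4).

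In αβ T-like cells alone, Il4 was at 76.9, 78.9, 60.8 and 66.9 CPM after PBMCsec and at 6.24, 14.5, 26.2 and 36.3 CPM after vehicle (70.9 ± 8.50 against 20.8 ± 13.2, SD, n = 4, exact permutation p = 0.0286). These values rest on few molecules, 27, 26, 18 and 12 UMIs against 1, 3, 4 and 6. The share of αβ T-like cells with Il4 was 11.9, 11.9, 12.9 and 18.5% after PBMCsec and 3.13, 8.33, 5.88 and 11.1% after vehicle (13.8 ± 3.18% against 7.11 ± 3.41%, exact permutation p = 0.0286, n = 4). After thinning to 1000 UMIs the shares were 4.47 ± 1.44% and 1.98 ± 1.85%, and the groups overlapped (exact permutation p = 0.114, n = 4). Within the cluster led by Ctla4, Areg and Icos, picked after its values were seen, Il4 was at 108 ± 16.8 CPM after PBMCsec and 27.4 ± 19.0 CPM after vehicle (SD, n = 4, exact permutation p = 0.0286). Mast cell and basophil markers, summed over a list of 13, lay at 72.4 to 413 CPM in the αβ T-like cells of PBMCsec libraries and at 6.04 to 300.0 CPM in those of vehicle libraries (exact permutation p = 0.286, n = 4), with 3 of the 13 higher after PBMCsec and 8 at 0 in that class, Tpsb2, Mcpt4, Ms4a2 and Fcer1a among them. Hdc with 258 UMIs and Cyp11a1 with 101 made up nearly all of this sum, while Kit had 6 UMIs, Cpa3 2 and Cma1 1. Their part in the result was not tested.

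The other cytokines of these cells showed no such gap. In ILC-like cells, 8 members were compared and none separated the groups (lowest exact permutation p = 0.0857, n = 4 each). Where each of the 8 libraries held 3 or more cells of a class, members were compared between the groups, 76 comparisons without adjustment, and 3 did not overlap: Il4 in αβ T-like cells, Areg in hair follicle- and gland-like cells and Tslp in dendritic-like cells. The last rests on 4 UMIs in all, 1 in each PBMCsec library and 0 in each vehicle library. Over all genes, groups that did not overlap made up 1.26% of those tested in epithelial, 1.46% in fibroblast-like, 1.58% in stromal, 2.32% in lymphoid and 2.56% in myeloid cells.

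Areg in epithelial cells had the lowest unadjusted p of the 32 member differences that were fitted. Summed over keratinocyte-like and hair follicle- and gland-like cells, it was at 55.6, 48.4, 16.3 and 11.1 CPM after PBMCsec and 8.56, 1.09, 9.61 and 9.73 CPM after vehicle (32.8 ± 22.4 against 7.25 ± 4.14, SD, n = 4, exact permutation p = 0.0286). In edgeR's quasi-likelihood test the log2 fold change was 1.93 (SE 0.59, unadjusted p = 0.00764, adjusted p = 1.0), and 0.0% of 10735 genes were called, while 1.26% had groups that did not overlap. The values differed most in libraries numbered 1 and 2, where the log2 fold change was 4.16, and it was 0.50 in libraries numbered 3 and 4 and 0.98 at a mitochondrial limit of 20%. The epithelial values of vehicle 1 and vehicle 2 rest on 2 and 1 UMIs, against 134 and 27 in PBMCsec 1 and PBMCsec 2. By class, hair follicle- and gland-like cells had 88.9, 60.5, 23.0 and 16.2 CPM after PBMCsec and 7.42, 0, 9.77 and 5.05 CPM after vehicle (47.1 ± 34.0 against 5.56 ± 4.18, exact permutation p = 0.0286, n = 4). In vehicle 1 and vehicle 2 this class had 1 and 0 UMIs of Areg in 15 and 37 cells. Keratinocyte-like cells had 9.54, 0, 9.65 and 3.83 CPM and 11.03, 1.91, 11.5 and 13.7 CPM (5.75 ± 4.70 against 9.54 ± 5.23, exact permutation p = 0.286, n = 4), without a gap.

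The cluster led by Cst6 and Krt79 had 206 of the 304 Areg UMIs of the hair follicle- and gland-like class. It held 11, 2, 27 and 15 cells after PBMCsec with 112, 8, 38 and 16 UMIs of Areg, and 3, 3, 24 and 13 cells after vehicle with 0, 0, 27 and 5 UMIs. Its level was 291 ± 277 CPM against 43.2 ± 66.8 CPM (SD, n = 4, exact permutation p = 0.0857), and the remaining epithelial cells had 15.1 ± 13.0 CPM against 6.75 ± 3.93 CPM (exact permutation p = 0.314, n = 4). Of the 67 hair follicle- and gland-like cells with Areg, 5 had Ptprc. In the epithelial sums, the list of αβ T cell markers lay at 77.7 to 231 CPM after PBMCsec and 23.6 to 656 CPM after vehicle, with 3 of 11 genes higher (exact permutation p = 0.943, n = 4). The list of innate lymphoid markers lay at 328 to 695 CPM and 510 to 1171 CPM, with 8 of 16 higher and Nmur1 at 0 (exact permutation p = 0.429, n = 4). Gata3 with 6705 UMIs and Rora with 3369 led that list, and both are genes of keratinocyte-like cells themselves, met in 82.7% and 69.3% of them, so that this sum is no measure of lymphoid RNA. Among the αβ T cell markers Trbc2 led with 1363 UMIs, against 131 of Cd3e.

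Tslp in macrophage-like cells was at 43.7, 28.5, 27.6 and 4.93 CPM after PBMCsec and 19.5, 0, 0 and 0 CPM after vehicle (26.2 ± 16.0 against 4.88 ± 9.75, SD, n = 4, exact permutation p = 0.0571), and the groups overlapped. There were 21 UMIs in 13 cells, 11 of which had Ptprc. Markers of fibroblasts, the class with the most Tslp UMIs, were summed in the same cells and lay at 99.4 to 1744 CPM after PBMCsec and 117 to 158 CPM after vehicle, with 10 of 10 genes higher after PBMCsec (exact permutation p = 0.371, n = 4). Keratinocyte markers lay at 155 to 226 CPM and 58.5 to 498 CPM, with 4 of 12 higher. Their part in the result was not tested. In myeloid cells 0.0% of 5743 genes were called (3 with the library number as a block, none of them a member), and 2.56% did not overlap. Over all myeloid cells Tslp had 26 UMIs, too few for the fit with or without the block, so neither could call it. It stood at 9.66 ± 6.09 CPM against 0.926 ± 1.85 CPM (n = 4, exact permutation p = 0.0571).

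In fibroblast-like cells Tslp was at 12.2 ± 5.64 CPM after PBMCsec and 7.10 ± 3.46 CPM after vehicle (log2 fold change 0.76), whereas the means of Il13ra1 (87.7 ± 41.6 against 133 ± 18.1 CPM, -0.54), Il33 (125 ± 73.0 against 178 ± 87.6 CPM, -0.47) and Il4ra (189 ± 120 against 248 ± 55.8 CPM, -0.39) lay below those of vehicle. None of these differences exceeded the spread between the 4 libraries of each group (edgeR, adjusted p = 1.0 each, and 0.0% of 9581 genes called). Il4ra in lymphoid cells had 78.3 ± 19.0 against 55.3 ± 16.5 CPM (log2 fold change 0.53), also within the spread. Besides Areg in epithelial cells, Tslp in whole libraries and these, the other 25 member differences had log2 fold changes of at most 0.98 in size, and none passed the test.

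**Figure D4:**
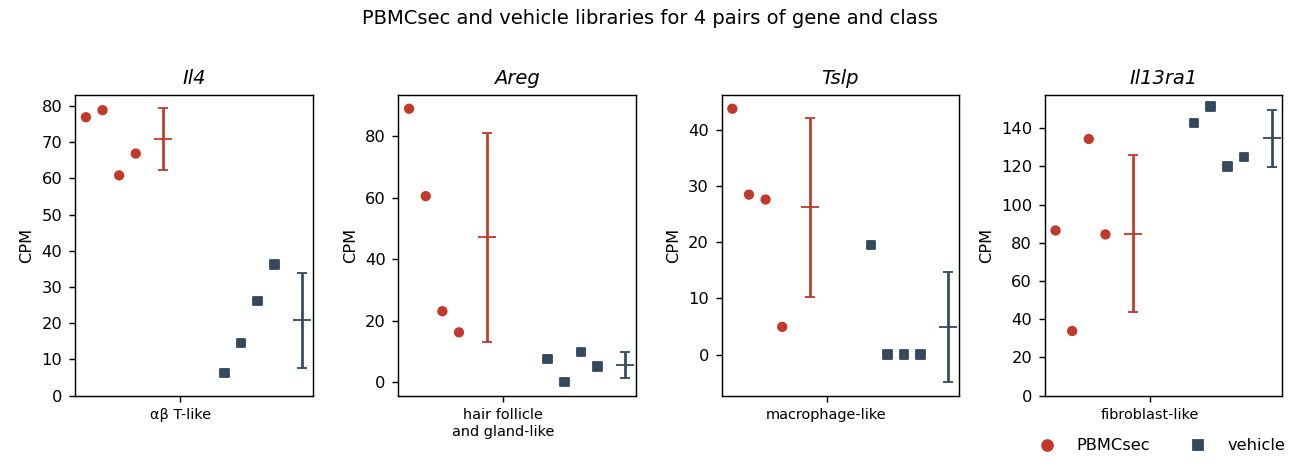
CPM per library on a linear axis, with mean ± SD, for Il4 in αβ T-like cells, Areg in hair follicle- and gland-like cells, Tslp in macrophage-like cells and Il13ra1 in fibroblast-like cells, PBMCsec beside vehicle (n = 4 each). Il4 and Areg do not overlap between the groups, with Areg of PBMCsec 3 and 4 close above the vehicle values, and Tslp and Il13ra1 overlap.

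The other genes of the pathway were read from the same 6 fits by 4 lists, and none was called in any fit. Of the receptor chains, 12 of 13 were tested in whole libraries, 6 with positive and 6 with negative log2 fold changes (median 0.07, all genes -0.02). Signalling and transcription genes had 7 positive and 13 negative values of 20 tested (median -0.05), with Gata3 at -0.61, and other cytokines 6 positive and 3 negative of 9 (median 0.38). Targets of the type 2 response had 10 positive and 2 negative values of 12 tested (median 0.69), with 2 at an unadjusted p under 0.05. The highest was Ccl8, a chemokine of macrophages, at 402 ± 222 CPM after PBMCsec and 57.6 ± 23.8 CPM after vehicle (n = 4, log2 fold change 2.81, SE 0.46, adjusted p = 1.0 in edgeR's test). In myeloid cells, 7 of 7 targets had positive values (median 0.64), again with Ccl8 at the head (3.39, SE 0.69, adjusted p = 0.559, edgeR), and 10 of 12 signalling genes did.

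In lymphoid cells the only target tested was Arg1, an arginine-degrading enzyme that is also a gene of group 2 innate lymphoid cells. It was at 39.1 ± 30.3 CPM after PBMCsec and 164 ± 81.9 CPM after vehicle (n = 4, log2 fold change -2.01, SE 0.53, adjusted p = 0.647, edgeR), and the share of ILC-like cells was the lower one in the same group, as given above. The part of that share in the result was not tested. Of the lymphoid signalling genes, 8 had positive and 9 negative values. In fibroblast-like cells the 4 other cytokines tested were all positive, led by Il6 (69.0 ± 86.9 against 4.1 ± 3.2 CPM, log2 fold change 3.94, SE 1.1, edgeR, not called). The cluster led by Ptx3, Ccl2 and Cxcl1 had no cells in PBMCsec 2, vehicle 1 and vehicle 2, and its part in the result was not tested.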

How the data were processed

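Skin biopsies of 4 mm were dissociated and made into Chromium 3′ v3.1 libraries. The deposited values are raw UMI counts of genes by barcodes, made by the authors with Cell Ranger on mm10. The submitters' processing notes and the file headers name version 3.0.2, and the paper names another. Cells were kept by the filter of the study (between 500 and 4000 genes, no more than 20000 UMIs, and mitochondrial counts of 5% or less), and 3 genes were removed as there (Gm42418, Gm17056 and Gm26917). The 8 members among the 2000 variable features were left out, libraries were integrated in Seurat 5.3.0 (30 dimensions) and 33 of 34 clusters were named from marker lists. Names followed a rule that was written once the clusters had been seen: at least 3 markers, each in at least 25% of cells. Each marker also had to reach 2-fold over the median level of all clusters, with a prior of 10 CPM. Scrublet called 22 cells (0.358%), too few to count as a working doublet call, and no cell was removed on it. The 5% highest scores were left out as an alternative.

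Counts were summed per library and class or compartment and tested with edgeR 4.0.16 (quasi-likelihood, TMM, filterByExpr, Benjamini-Hochberg over all genes tested, call at an adjusted p under 0.05) in R 4.3.3, and single values by the exact two-sided permutation test over libraries (scipy 1.17.1). Class contrasts used sums of at least 5 cells in at least 6 libraries. DESeq2 1.42.0 was an alternative. The study tested cells, which are not replicates, so sums per library were used in its place. For libraries of the same number, deviations from the group mean were correlated across genes. The correlations were 0.29 to 0.57 in whole libraries, 0.14 to 0.41 in lymphoid, 0.29 to 0.44 in myeloid and 0.12 to 0.27 in stromal cells. In epithelial cells (-0.02 to 0.48) and fibroblast-like cells (-0.01 to 0.24) not every pair was over 0.1. Libraries of unlike numbers were not compared, so these values do not show that the number marks a pair. The labels do not say what the number marks.

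The text names the 10 members, at most 2 genes at either end of each pathway list and fit, and the 3 genes most like each member. For classes in which at least 5% of cells had a UMI of a member, values are given by library, as a range or, for a few small classes, pooled. The members, the pathway lists and the marker lists were chosen with earlier results of these data known. The series is titled for another study of PBMCsec, and the scar study names it among its data. The topical, human and culture experiments were not analysed here.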

Additional observations from a re-analysis of the deposited data

Results flagged for a closer look

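In 6 of 70 groups of 4 libraries, 1 library lay so far from the other 3 that its gap took up nearly the whole range of the group. Chance alone marks about 1 in 20 such groups. In lymphoid cells, vehicle 4 had Il4 at 27.4 CPM, above the other vehicle libraries, and PBMCsec 3 had Csf2 at 621 CPM, above the other PBMCsec libraries. In epithelial cells, vehicle 2 had Areg at 1.09 CPM, below the other vehicle libraries, and PBMCsec 2 had Tslp at 7.17 CPM, apart from the other PBMCsec libraries. PBMCsec 4 had Il4ra at 343 CPM in stromal cells and at 369 CPM in fibroblast-like cells, above the other PBMCsec libraries in both, and the second value is part of the first.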

How the results depend on the processing

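Each fit was repeated under up to 17 alternatives. Over the 32 member differences, none reached an adjusted p under 0.05 in any of them, 14 kept their sign in all and 18 changed it in at least 1. Il4 in lymphoid cells was below the filter of the main fit and is not among the 32. Fitted without that filter it was called, as given above. Calls over all genes, 0 in each fit, were 10 (whole libraries), 3 (lymphoid), 2 (myeloid) and 1 (epithelial cells) with DESeq2, 47 (lymphoid) and 17 (myeloid) without a filter on low counts, and 7 (lymphoid) and 3 (myeloid) with a block for the library number, which added none elsewhere. Libraries numbered 1 and 2 alone gave 10 calls in lymphoid cells, and those numbered 3 and 4 alone gave 4 in lymphoid and 3 in myeloid cells. Myeloid cells gave 2 calls at a mitochondrial limit of 20% and 1 without the highest Scrublet scores. Leaving out 1 library gave 0 to 2 calls in lymphoid cells (2 without PBMCsec 4) and 0 to 1 in myeloid cells (1 without vehicle 2). Il4ra in fibroblast-like cells, at -0.39 on the log2 scale, was at 0.056 in libraries numbered 3 and 4 alone. The difference of Il4 in lymphoid cells, 29.7 CPM, was 36.9 CPM at a mitochondrial limit of 20%, 32.1 CPM without ILC-like cells, 29.7 CPM in pairs of libraries of the same number (paired exact permutation p = 0.125), 42.1 CPM in libraries numbered 1 and 2 and 17.3 CPM in those numbered 3 and 4 (exact permutation p = 0.333 each, the smallest 2 against 2 allow), and 27.0 to 34.3 CPM with 1 library left out. The share of ILC-like cells, -2.83 percentage points, lay at -3.82 to -0.81 with 1 library left out, and that of mast cell- and basophil-like cells, -0.90, at -1.40 to -0.30. Of 55 levels of members in their leading classes, 54 moved by less than 1 SD between libraries, and Csf2 in αβ T-like cells went from 69.5 to 300.0 CPM at a mitochondrial limit of 20%, where ILC-like cells did not form a cluster of their own and gave no value. Of 20 shares of cells with a UMI, thinning to 1000 UMIs left 2 within their intervals. Causes were not tested. Low counts set the limit for Il4 and Tslp, with 149 and 253 UMIs in all kept cells.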
